A study of Mus musculus with 10 samples.

Results

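The miRNAs described here are markers of lineages other than renal epithelium, read in a collecting duct cell line. They are the 77 probes, of 1040 with a mouse miRNA name, whose names carry 1 of 30 numbers known as markers of blood, muscle, neurons, endothelium and stroma, liver, pancreatic islet or embryonic stem cells, with any letter, copy or arm. The probes were taken by name and not by a value, although the numbers were listed with earlier results of these data known. By lineage there were 9 blood, 17 muscle, 14 neuron, 11 endothelium and stroma, 2 liver, 2 islet and 22 embryonic stem cell probes, and the muscle set includes both probes named miR-1-2-as. Total RNA came from mIMCD-3, a cell line that was derived from mouse inner medullary collecting duct, grown on permeable filters and held for 24 h without hormone. The groups were 5 samples given 100 nM aldosterone, the hormone that acts through the mineralocorticoid receptor of the distal nephron, and 5 given its ethanol vehicle. Each sample was read on its own single-colour array, and all samples share the 1 cell line and medium. The labels do not name separate cultures, so the p-values reflect the spread among these 10 arrays alone and that spread may be technical. How long the hormone was present is not given in the sources used here. In a bulk extract of 1 cell line, fewer cells that make a miRNA and less of it per cell cannot be told apart.

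A mature miRNA is cut from a hairpin and guides silencing of mRNAs that pair with its seed, bases 2 to 8. Either arm of a hairpin can give a product, and in the older names used on the array an asterisk marks the arm thought to be the minor one. Some miRNAs are transcribed almost only in 1 lineage, such as miR-122 in hepatocytes, miR-124 in neurons, miR-1 and miR-133 in muscle, miR-142 and miR-223 in blood cells, and the miR-302 and miR-290 to miR-295 clusters in pluripotent stem cells. In a tissue extract they are often read as a sign of another cell type.

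The sequences below are those of the markers that were seen on most arrays and that RefSeq lists (GRCm38.p6), with the seed in capitals. They show that the minor arms of miR-128 share a seed and are rich in G and C.
miR-128-3p (array name miR-128): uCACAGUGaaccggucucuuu
miR-128-1-5p (miR-128-1*): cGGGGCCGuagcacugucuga
miR-128-2-5p (miR-128-2*): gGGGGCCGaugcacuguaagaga
miR-206-3p (miR-206): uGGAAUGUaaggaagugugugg
miR-375-5p (miR-375*): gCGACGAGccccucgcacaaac
miR-126a-3p (miR-126-3p): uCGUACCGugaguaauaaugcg
miR-9-5p (miR-9): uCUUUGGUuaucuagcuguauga
miR-214-3p (miR-214): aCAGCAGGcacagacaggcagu

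For contrast, these are stem cell miRNAs with the common seed AAGUGCU, from the miR-290 to miR-295 and the miR-302 clusters, none of which was seen on more than 1 array.
miR-291a-3p (miR-291a-3p): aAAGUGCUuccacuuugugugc
miR-294-3p (miR-294): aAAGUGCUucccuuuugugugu
miR-295-3p (miR-295): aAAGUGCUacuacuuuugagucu
miR-302b-3p (miR-302b): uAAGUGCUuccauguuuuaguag
miR-302d-3p (miR-302d): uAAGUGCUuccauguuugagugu

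In RefSeq, miR-128-3p is made from 2 loci, chr1:128202404-128202424 on the plus strand, within the span of the protein-coding gene R3hdm1, and chr9:112118644-112118664 on the minus strand, within Arpp21. Its minor arms lie beside it at chr1:128202369-128202389 (plus) and chr9:112118679-112118701 (minus). miR-206-3p lies at chr1:20679055-20679076 (plus) in the long non-coding RNA Lincmd1, and miR-375-5p at chr1:74900696-74900717 (minus) in no other annotated gene. miR-126a-3p lies at chr2:26591402-26591423 (plus) in Egfl7, a gene of the endothelium, and miR-214-3p at chr1:162223438-162223459 (plus) within Dnm3 and the non-coding Dnm3os. A RefSeq mature sequence was matched for 56 of the 77 markers.

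Each probe was spotted 2 times, and detection on an array means here that the authors kept both spots as above their background threshold. That threshold was low. It lay 1.15 to 1.503 SD of all blank spots above their mean, and 5.14% to 7.84% of the blank spots of an array exceeded it. The height of a signal is therefore also given below in SDs of the blank spots of the same array, as the mean of the 2 spots without normalization. The blank spots averaged 17.6 to 21.5 intensity units with an SD of 0.939 to 1.34. Precision is limited by there being 5 arrays a group.

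Most markers of this list were at background in these cells. Of the 77 probes, 5 were detected on all 10 arrays, 6 on 5 to 9, 18 on 1 to 4 and 48 on none. Detection on all arrays thus held for 6.49% of the markers, against 23.5% of all mouse probes. The same share was 17.9% among 39 probes for viral miRNAs of mouse cytomegalovirus and gammaherpesvirus, which the labels do not name in these cells. Detection on no array held for 62.3% of the markers, 34.2% of all mouse probes and 41.0% of the viral probes. Over all marker probes and arrays, both spots passed in 15.5% of 770 cases and a single spot in 23.9%. For the viral probes these shares were 35.9% and 21.0%. The median marker stood 0.397 intensity units above the blank mean, the median of the other mouse probes 1.53 and that of the viral probes 1.02. As a check of the label, the epithelial miR-200 family was detected on all 10 arrays at 3 of its 10 probes (miR-200b, miR-200a and miR-429) and on none at 2. Other main strands of the family were low, with miR-200c detected on 2 arrays at a median of 1.38 blank SDs and miR-141 on 1 at 0.705. Normalized intensity of miR-200a was 106 ± 33.6 with aldosterone and 82.0 ± 38.8 with vehicle (SD, n = 5 each).

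**Figure D1:**
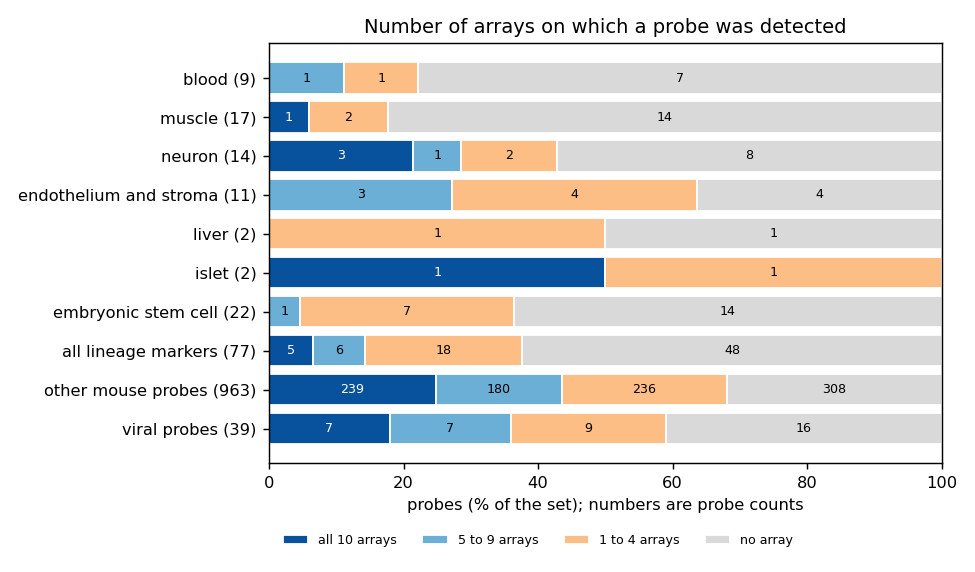
Share of probes (x axis, %) by the number of arrays on which both spots passed the authors' threshold, for each lineage, for all 77 lineage markers, for the 963 other mouse probes and for the 39 viral probes; numbers in the bars are probe counts. Only neuron, muscle and islet probes reach all 10 arrays among the markers, and 48 of 77 markers are detected on none.

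The blood markers of this list were almost without signal. Of 9 probes 7 were detected on no array (77.8%, against 34.2% of all mouse probes). These were both arms of miR-142, a miRNA of all blood lineages, both arms of miR-144 and of the myeloid miR-223, and miR-150*. Their signals on single arrays ran from -2.43 to 1.99 intensity units around the blank mean. The erythroid miR-451, whose hairpin lies 100 bases from that of miR-144, was detected on 1 array with aldosterone. The lymphocyte miRNA miR-150 was detected on 5 arrays, 4 with aldosterone and 1 with vehicle, with a median height of 1.90 blank SDs (range 0.346 to 2.87). On no array did it pass a threshold of 3 SD of all blank spots.

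Among the 17 muscle probes of this list miR-206 alone was detected on 5 or more arrays (41.3% of all mouse probes were). It was detected on all 10 arrays at a median of 4.87 blank SDs (2.76 to 13.0). Of the other 16 muscle probes, 14 were detected on no array, namely miR-1, miR-1-1*, miR-1-2*, both miR-1-2-as probes, miR-133a, miR-133b, miR-133b*, miR-206*, miR-208a-3p, miR-208b, miR-208b* and both arms of miR-499. Their signals on single arrays ran from -2.98 to 4.43 intensity units around the blank mean. The highest was miR-133a on vehicle replicate 3, at 3.91 blank SDs, and miR-133a had a single spot kept on 5 arrays. The hairpins of miR-206 and miR-133b lie 3687 bases apart on the same strand within Lincmd1, yet miR-133b had both spots above the threshold on no array, at a median of 0.170 blank SDs (-0.172 to 2.04). miR-1 was below the blank mean in the median, at -0.863 blank SDs, and had not a single spot kept on any array. miR-208a-5p, within the span of the cardiac myosin gene Myh6, was detected on 2 arrays and miR-133a* on 1, all with aldosterone.

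Of the 14 neuron probes of this list only strands of miR-128 and the main strand of miR-9 were detected on 5 or more arrays. Detection on all 10 arrays held for 21.4%, close to the 23.5% of all mouse probes. Detection on no array held for 57.1%, against 34.2%. All 3 strands of miR-128 were detected on all 10 arrays, the main strand at a median of 5.63 blank SDs (3.03 to 18.96), miR-128-1* at 4.76 (2.36 to 9.94) and miR-128-2* at 11.7 (6.78 to 28.8). miR-128-2* was the only marker with both spots over 5 blank SDs on all arrays. miR-9, a miRNA of neural progenitors and neurons, was detected on 8 arrays at a median of 2.47 blank SDs (0.654 to 7.06) and miR-9* on 1. miR-218, within the spans of Slit2 and Slit3, was detected on 4 arrays at a median of 1.36. The other 8 probes were detected on no array. They were both arms of miR-124, miR-137 and miR-153, and the minor arms miR-218-1* and miR-218-2*. miR-124, the most neuron-specific of the set, lay below the blank mean in the median, and 0.735 blank SDs was its highest.

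Of 11 endothelial and stromal probes 3 were detected on 5 to 9 arrays, 4 on 1 to 4 and 4 on none. These shares were 27.3%, 36.4% and 36.4%, against 17.9%, 24.4% and 34.2% of all mouse probes. The median probe of this group stood 1.41 intensity units above the blank mean, near the 1.53 of the other mouse probes. Unlike the markers as a whole, this group was thus not mostly at background. miR-126-3p, the main endothelial miRNA, was detected on 9 arrays at a median of 4.71 blank SDs (1.28 to 18.7), while miR-126-5p, from the same hairpin, was detected on 2 at a median of 0.411. miR-214 was detected on 6 arrays (median 2.39, range 1.31 to 5.66), miR-143* on 5 (1.83, range 0.00610 to 2.91), miR-199a-5p on 4 (1.42) and miR-199b* and miR-214* on 2 each. The hairpins of miR-199a-2 and miR-214 lie 5445 bases apart on the same strand, within the mesenchymal transcript Dnm3os. The probe shared by miR-199a-3p and miR-199b, the smooth muscle miRNAs miR-143 and miR-145, and miR-145* were detected on no array.

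The liver miRNA miR-122 was detected on 1 array, at a median of 0.631 blank SDs, and miR-122* on none. Islet miR-375, which regulates insulin secretion, was detected on 1 array at a median of 1.15 blank SDs, whereas the probe for its other arm, miR-375*, was detected on all 10 at a median of 10.6 (4.91 to 24.3). Across all markers 3 of the 5 probes detected throughout were asterisk strands, from 32 asterisk probes and 45 without. Detection on all arrays held for 9.38% of the asterisk probes and 4.44% of the others, against 23.5% of all mouse probes. On no array were 68.75% of the asterisk probes and 57.8% of the others. The share of asterisk strands over all mouse probes was not counted.

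Embryonic stem cell miRNAs were detected on no array for 14 of 22 probes (63.6%, against 34.2% of all mouse probes). miR-292-3p was the exception, detected on 6 arrays at a median of 2.02 blank SDs (1.31 to 2.82), and it passed a threshold of 3 blank SDs on none. miR-292-5p and miR-294* were detected on 2 arrays, and miR-291b-5p, miR-293, miR-294, miR-302b and miR-302b* on 1 each. Both arms of miR-291a and miR-295, miR-291b-3p and miR-293* were detected on none. The 5 probes with the seed AAGUGCU, printed above, had medians between -0.0301 and 0.709 blank SDs. In the miR-302 and miR-367 cluster, whose hairpins are 44 to 66 bases apart, 8 of 10 probes were detected on no array. These were both arms of miR-302a, miR-302c, miR-302d and miR-367.

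**Figure D2:**
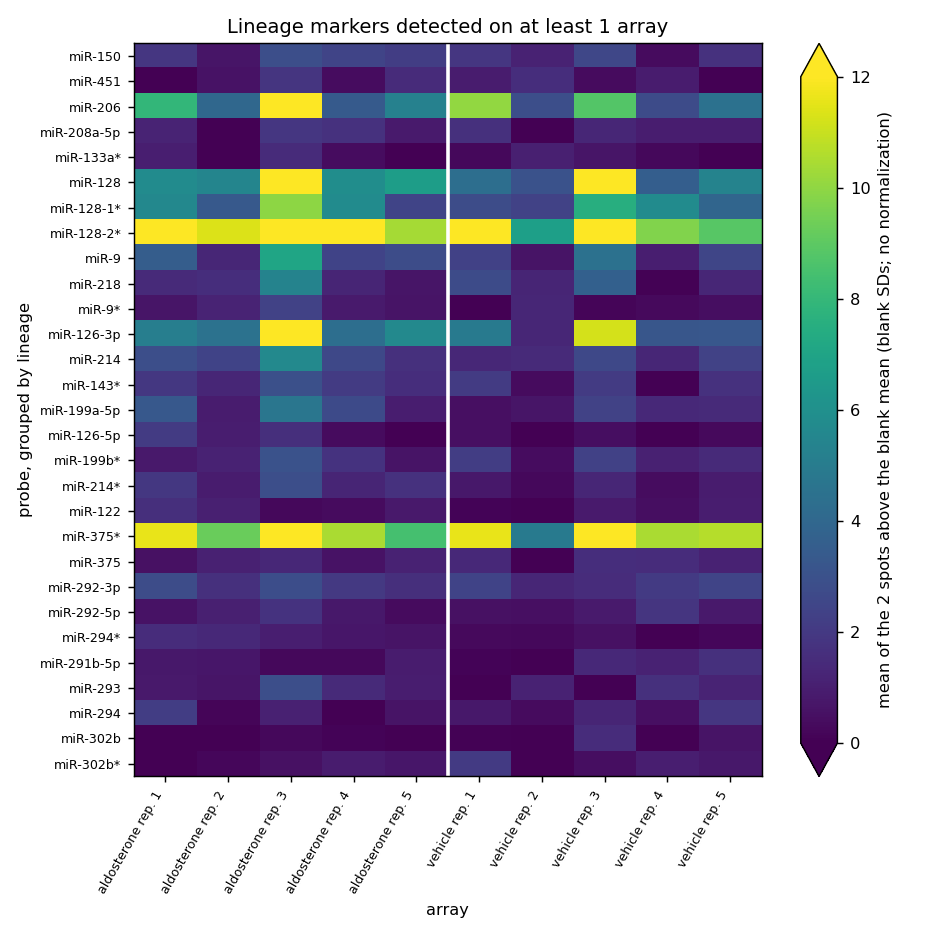
Height of the 29 markers detected on at least 1 array (rows, grouped by lineage) on the 5 aldosterone and then the 5 vehicle arrays (columns), as the mean of the 2 spots above the blank mean in SDs of that array's blank spots, without normalization. miR-128-2* and miR-375* are the highest rows on most arrays, and both arrays of replicate 3 are the brightest for miR-128 and miR-126-3p.

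A second list, chosen for related lineages but outside the numbers above, held 36 probes. Of these, 6 were seen on all 10 arrays (16.7%, against 23.5% of all mouse probes). A further 11 were seen on 5 to 9 arrays (30.6%, against 17.9%) and 9 on no array (25%, against 34.2%). The median probe of this list stood 1.70 intensity units above the blank mean, against 0.397 for the 77 markers and 1.53 for the other mouse probes. Those on all 10 arrays were miR-96, miR-182, miR-183 and miR-183* of the cluster known from sensory epithelia, miR-7a of neurons and endocrine cells, and miR-486*, listed for blood and muscle. The median height of miR-486* was 20.6 blank SDs (12.1 to 70.2), higher than that of any of the 77 markers. The probe shared by miR-486 and miR-3107 was detected on 7 arrays. Normalized intensity was 86.7 ± 18.4 with aldosterone and 80.9 ± 23.5 with vehicle for miR-96, 88.7 ± 17.7 and 94.1 ± 12.05 for miR-182, and 31.0 ± 5.97 and 26.2 ± 10.9 for miR-7a (SD, n = 5 each). From the stem cell cluster, miR-290-5p was detected on 9 arrays and miR-290-3p on 5. Both arms of the gonadal miR-202 were detected on no array, and the miR-449 family of ciliated epithelia on at most 1 array per probe.

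The number of markers seen differed from array to array. With aldosterone 15, 10, 23, 13 and 10 marker probes were detected on replicates 1 to 5, and with vehicle 11, 5, 15, 7 and 10. The mean was 14.2 ± 5.36 with aldosterone and 9.6 ± 3.85 with vehicle (SD, n = 5 each), a difference of 4.6 probes, and the groups overlapped. Of the 5 pairs of arrays with the same number, 4 had more with aldosterone and 1 had equal counts. The difference was 2.4 probes without aldosterone replicate 3, the array with the most detected probes of every kind. As shares, 18.4% of the markers were detected per array with aldosterone and 12.5% with vehicle, a gap of 5.97 percentage points. Over the other mouse probes the shares were 46.4% and 39.7%, a gap of 6.67 points, and over the viral probes 37.4% and 34.4%, a gap of 3.08 points. The part of overall brightness in the difference in markers was not tested.

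**Figure D3:**
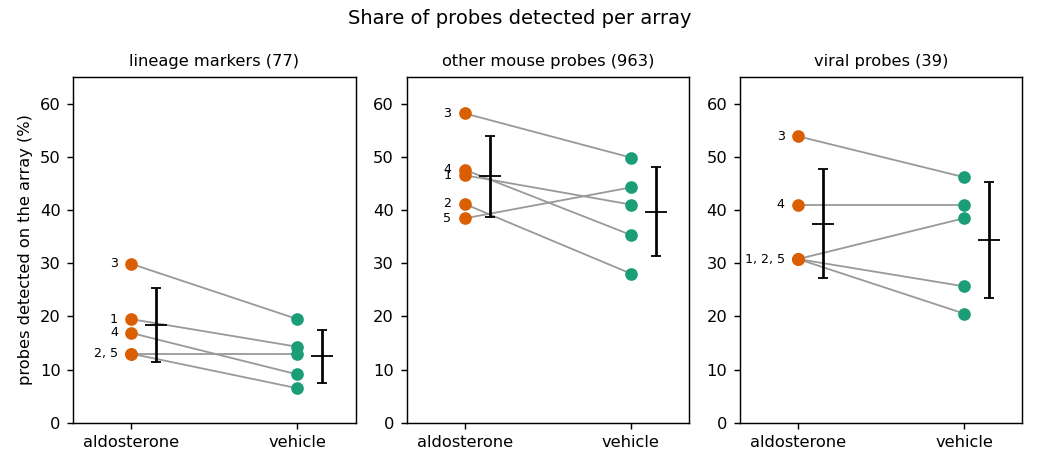
Share of probes detected on each array (y axis, %) with aldosterone (left) and vehicle (right) for the markers, the other mouse probes and the viral probes; lines join arrays with the same replicate number, which stands beside the aldosterone point, and bars give the mean and SD of 5 arrays. Replicate 3 with aldosterone is highest in all 3 sets, and the groups overlap in each.

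Of the 29 markers detected on at least 1 array, 16 were detected on more aldosterone arrays and 4 on more vehicle arrays (miR-143*, miR-291b-5p, miR-302b and miR-302b*). The other 9 were detected on as many of each. This tally was not made over all mouse probes. The other mouse probes were also detected more often per array with aldosterone (46.4% against 39.7%), so the tally is no result about the markers. miR-214 was detected on all 5 aldosterone arrays and 1 vehicle array, a gap of at least 4 arrays that 0.288% of all mouse probes showed, and miR-150 on 4 and 1. A gap of at least 3 arrays toward aldosterone held for 2 of 77 markers, miR-214 and miR-150, a share close to the 2.69% over all mouse probes, and toward vehicle for 0 of all 1040 probes. These are counts at a low threshold, and the intensities below overlap between groups for both miRNAs.

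The comparison of levels used the 11 markers detected on 5 or more arrays, as 41.3% of all mouse probes were, among 430 mouse probes tested in 1 fit. Levels are quantile-normalized intensities above background, on a scale where the 356 mouse probes detected on no array had a median of 2.97. No marker passed the test between aldosterone and vehicle. In limma with Benjamini-Hochberg adjustment over all 430 probes 0 passed at 0.05 (0% of all tested, adjusted p = 0.944 to 0.953 for the markers), and at an unadjusted p under 0.05 there were 0 markers against 1.86% of all tested probes (0.93% higher and 0.93% lower). With the replicate block 4.42% of all tested probes had an unadjusted p under 0.05 (2.56% higher and 1.86% lower), and 0 markers. Of the 11 markers 7 were higher and 4 lower with aldosterone, with a median log2 change of 0.012, against 53% of all tested probes higher, 47% lower and a median of 0.0025. Of the 5 markers detected on all 10 arrays 2 were higher and 3 lower, with a median of -0.012, and miR-214 and miR-150 entered the 11 mainly through aldosterone arrays, so the tally is a description. Groups that do not overlap were found for 0 of the 11 and 0% of the 430 tested probes. With no filter on detection, 1 of 77 markers had groups that did not overlap, against 0.385% of all 1040 mouse probes. This was miR-214*, the other arm of miR-214, singled out after its values were seen. It had 4.91, 3.91, 4.48, 4.03 and 5.32 intensity units with aldosterone and 3.42, 3.64, 3.89, 3.50 and 3.43 with vehicle. After normalization every aldosterone array was above every vehicle array, the closest being 3.91 on aldosterone replicate 2 and 3.89 on vehicle replicate 3. Without normalization these 2 arrays were at 1.07 and 1.47 units above the blank mean, so the groups overlapped. Both spots passed on only 2 arrays, and the unfiltered limma fit gave an adjusted p of 0.958 (log2 change 0.025, SE 0.0086). The signs of the 11 depend on the scaling. All 11 were higher without normalization between arrays, where 96.05% of all tested probes were, and all 11 were lower under 75th percentile scaling, where 14.0% were higher.

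The neuronal miR-128 had 8.86, 11.0, 11.6, 10.2 and 12.1 intensity units with aldosterone (replicates 1 to 5) and 8.06, 9.79, 12.4, 8.56 and 9.72 with vehicle. The highest array was a vehicle array, and the aldosterone array was higher in 4 of 5 pairs. Its log2 change was 0.026 (SE 0.023). The minor arm miR-128-1* had 8.81, 7.65, 7.81, 9.93 and 6.28 with aldosterone and 6.08, 8.06, 8.76, 12.2 and 7.84 with vehicle (log2 change -0.012, SE 0.028). Vehicle arrays were both the lowest and the highest. miR-128-2* had 18.6, 20.1, 16.2, 18.8 and 16.9 with aldosterone and 20.1, 18.96, 13.9, 19.8 and 15.04 with vehicle (log2 change 0.012, SE 0.030). Its groups overlapped, and its 2 lowest arrays were vehicle arrays.

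miR-9 had 6.51, 4.53, 6.47, 5.63 and 6.72 units with aldosterone and 5.44, 4.26, 6.44, 4.32 and 5.78 with vehicle. Its groups overlapped, but it was the 1 marker of these 11 higher with aldosterone in 5 of 5 pairs, as were 3.72% of all tested probes (2.33% were lower in 5 of 5, 6.05% in either direction), with a log2 change of 0.019 (SE 0.016). With no filter on detection 4 of 77 markers were higher in 5 of 5 pairs (miR-9, miR-214*, miR-294* and miR-302a*), as were 3.56% of all mouse probes. Lower in 5 of 5 pairs were 3 (miR-133b*, miR-137* and miR-223*), as were 2.31% of all mouse probes. The muscle miR-206 had 11.5, 8.68, 9.33, 6.84 and 9.57 with aldosterone and 15.3, 9.49, 9.46, 7.35 and 8.64 with vehicle. It was lower with aldosterone in 4 of 5 pairs (log2 change -0.020, SE 0.036), and vehicle replicate 1 was far above the other vehicle arrays, without which the log2 change was 0.011.

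The endothelial miR-126-3p had 8.33, 9.60, 11.5, 8.03 and 10.3 units with aldosterone and 8.86, 5.60, 11.5, 7.96 and 6.69 with vehicle. The means were 9.55 ± 1.42 and 8.13 ± 2.27 (SD, n = 5 each), with vehicle replicate 2 the lowest, and the log2 change of 0.036 (SE 0.029) was the largest upward among the 11. miR-214 had 5.85, 6.34, 5.74, 5.79 and 5.18 with aldosterone and 4.08, 5.98, 4.87, 4.83 and 5.60 with vehicle. It was higher with aldosterone in 4 of 5 pairs, at means of 5.78 ± 0.412 and 5.07 ± 0.736 (SD, n = 5 each; log2 change 0.019, SE 0.012), and 4 of its 5 vehicle values lay on arrays where it was not detected. miR-143* had 4.89, 4.47, 4.47, 5.07 and 5.02 with aldosterone and 5.12, 3.75, 4.48, 3.02 and 4.51 with vehicle (log2 change 0.016, SE 0.013), with 2 vehicle arrays below all the others.

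The minor arm miR-375*, from the hairpin of the islet miRNA miR-375, had 14.6, 16.9, 14.1, 15.6 and 14.4 units with aldosterone. With vehicle miR-375* had 16.8, 14.5, 12.8, 21.1 and 18.6. Its vehicle arrays spanned the whole range of its aldosterone arrays, and the log2 change was -0.034 (SE 0.033). The lymphocyte miR-150 had 4.87, 3.50, 4.45, 5.70 and 5.81 with aldosterone and 4.89, 5.38, 4.84, 3.40 and 4.5003 with vehicle (log2 change 0.0068, SE 0.016). Its means differed by less than either group's spread, although it was detected on 4 and 1 arrays. The stem cell miR-292-3p had 5.77, 5.21, 4.42, 5.05 and 5.12 with aldosterone and 5.54, 5.66, 4.06, 5.93 and 5.71 with vehicle (log2 change -0.0069, SE 0.013). After normalization its lowest value was on replicate 3 in both groups, but without normalization replicate 3 was the lowest in neither.

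**Figure D4:**
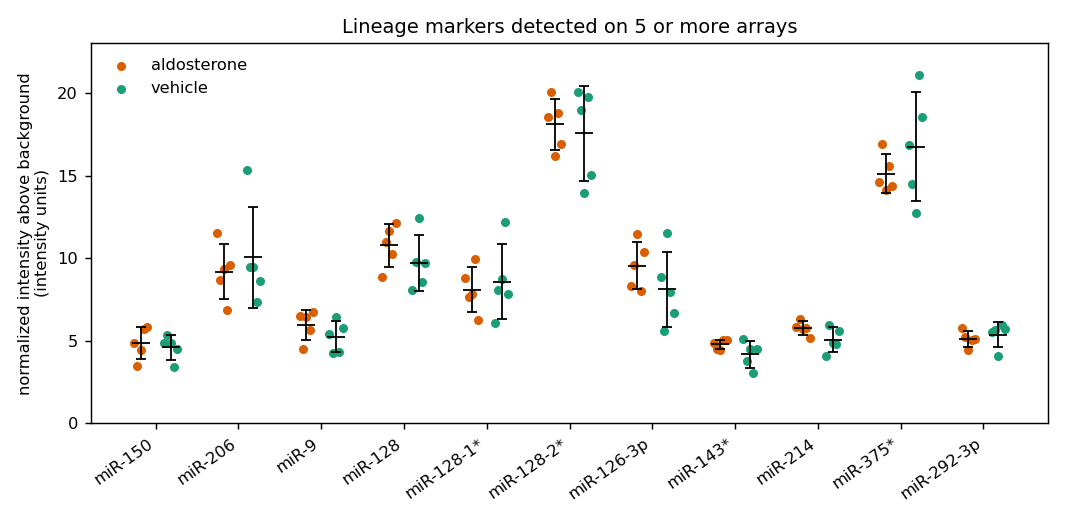
Normalized intensity above background (y axis, intensity units) of the 11 markers detected on 5 or more arrays, with aldosterone (left of each pair) and vehicle; points are arrays and bars give the mean and SD of 5. The groups overlap for every marker, and vehicle replicate 1 stands apart for miR-206 at 15.3.

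The fold changes are small partly by construction. They are on the scale log2(intensity + 50), and these markers lie between 4.48 and 17.8 intensity units on average, so the offset compresses them. The 95% intervals reached from -0.11 to 0.10 on that scale. With the blank mean subtracted and no offset, the log2 change was 0.45 (SE 0.30) for miR-126-3p, 0.45 (SE 0.21) for miR-214, 0.39 (SE 0.33) for miR-9 and -0.14 (SE 0.19) for miR-375*, and none passed (limma adjusted p = 0.926 for each). The intervals on the compressed scale are thus narrower than those of the intensity itself.

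**Figure D5:**
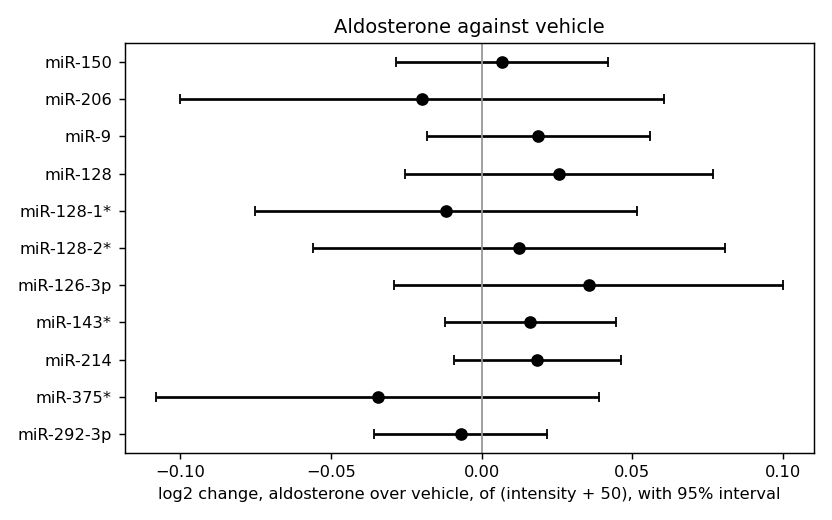
Log2 change with aldosterone over vehicle (x axis, of intensity + 50, limma, 5 arrays a group) with its 95% interval for the 11 markers. All 11 intervals include 0, from -0.11 at the lowest (miR-375*) to 0.10 at the highest (miR-126-3p).

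G and C content was not used to choose the markers. Among the 56 markers with a sequence, the median G and C content was 60.9% for the 5 detected on all 10 arrays (45.5% to 68.2%), 45.5% for the 3 detected on 5 to 9 arrays (34.8% for miR-9, 45.5% for miR-126-3p and 59.1% for miR-214), 45.5% for the 13 detected on 1 to 4 arrays and 40.9% for the 35 detected on none. It was 66.7% for miR-128-1*, 60.9% for miR-128-2* and 68.2% for miR-375*, against 47.6% for miR-128 and 45.5% for miR-206. Among 270 other mouse probes matched by name the median was 60.9% for the 49 detected on all arrays and 47.7% for the 96 detected on none. Shared arms and shared seeds make these probes not independent, and the part of base composition in detection was not tested.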

How the data were processed

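The deposited array files give intensity for 3136 spots, 778 of them blank. As a deposited note explains, the authors subtracted the blank mean, kept spots above the blank mean plus 2 SD, averaged the 2 spots and scaled each array to a median of 25. The files' background lay within 0.00632 units of the blank mean after 5% of blank spots were cut from each tail, and the lowest kept signal within 0.0122 of 2 SD of those remaining, so the threshold is lower than 2 SD of all blanks. The series value table held the same 6454 normalized intensities.

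From the raw intensity, background was corrected (normexp, offset 50, over all spots), the log2 values of the 2 spots averaged, flagged spots left out, and the 1079 mouse and viral probes quantile-normalized (R 4.3.3, limma 3.58.1). Levels are printed as linear intensity, less the offset. Aldosterone and vehicle were compared with lmFit and eBayes, two-sided and without a block, over the 430 mouse probes detected on 5 or more arrays. The code was also run on simulated data with changes planted in probes detected on all arrays. That run says nothing of dim markers. Titles in both groups begin with 5 common codes, used as replicate numbers 1 to 5. Arrays of a number deviated together from their group means (r 0.202 to 0.814), and 9 of 10 arrays correlated best with their own number, so the numbers were taken to pair the samples.

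Markers and lists were chosen with earlier results of these data known. Markers detected on at least 5 arrays are given array by array, other detected markers with their number of arrays, and undetected ones by lineage. The RefSeq arm for an older name was taken from later miRNA naming. Sequences on some chromosomes are not reported here. Base content, the 2 SD threshold over all blanks and genes singled out in the text beyond that rule were chosen after values were seen.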

Additional observations from a re-analysis of the deposited data

Results flagged for a closer look

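Within a group of 5 arrays, 2 values lay far from the other 4 (Dixon's test at its 95% critical value of 0.71, over 28 groups of values looked at, of which chance flags about 1 in 20). miR-206 was at 15.32 intensity units on vehicle replicate 1, against 7.35 to 9.49 on the other vehicle arrays. miR-292-3p was at 4.06 on vehicle replicate 3, against 5.54 to 5.93 on the others. Aldosterone replicate 3 was also the lowest of its group for miR-292-3p, at 4.42. Without normalization neither array was the lowest of its group for this miRNA. It was then 1.75 units above the blank mean on vehicle replicate 3, against 1.57 to 3.21 on the other vehicle arrays. On aldosterone replicate 3 it was 3.01, against 1.90 to 3.32 on the other aldosterone arrays.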

How the results depend on the processing

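No marker and none of all tested mouse probes passed under any alternative that was run (0 in each, limma; with the replicate block the smallest adjusted p was 0.744, and unadjusted p under 0.05 held for 19 probes, 8 without the block). The block changed no call, and the difference in detected markers within pairs was also 4.6. The SEs and intervals printed for the 11 markers are without the block. With it the SE was larger for miR-150, miR-214 and miR-143* and smaller for the other tested markers, such as 0.019 against 0.036 for miR-206. Without any filter, unadjusted p under 0.05 held for 5 of 77 markers and 32 of 1040 probes. The number of markers detected on all arrays was 9 where 1 kept spot sufficed, 3 above the blank mean plus 2 SD of all blanks, a threshold chosen after seeing the data, 2 above 3 SD (miR-128-2* and miR-375*) and 1 above 5 SD. The number detected on none was 4 with 1 kept spot and 61, 67 and 68 at the stricter thresholds. With an array or pair left out, 5 to 6 markers were detected on all arrays, 48 to 55 on none, and the difference between groups was 2.4 to 5.95 probes.

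Of 93 log2 changes under other settings 77 kept their sign and 16 reversed, and of 165 with an array or pair left out 6 reversed. The cause was not tested. Without normalization between arrays miR-206 was at 0.021, miR-292-3p at 0.007, miR-128-1* at 0.031 and miR-375* at 0.072. Under 75th percentile scaling miR-126-3p was at -0.015, miR-128 and miR-9 at -0.031, miR-150 at -0.044, miR-214 at -0.036, miR-143* at -0.030 and miR-128-2* at -0.047. In the series value table, where the median of all probes moved to 0.26, miR-150 was at -0.126, miR-206 at 0.22, miR-292-3p at 0.145, miR-128-1* at 0.227 and miR-375* at 0.275. With arrays left out the range was -0.007 to 0.023 for miR-150, -0.038 to 0.011 for miR-206, -0.031 to 0.011 for miR-128-1* and -0.005 to 0.026 for miR-128-2*.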

Other observations

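Of the 24 spots named as negative controls, 0 to 9 exceeded the authors' threshold on an array. The numbers were 5, 1, 9, 7 and 3 on aldosterone replicates 1 to 5, where 15, 10, 23, 13 and 10 markers were detected. On vehicle replicates 1 to 5 they were 0, 4, 8, 2 and 1, with 11, 5, 15, 7 and 10 markers. Of the 48 markers never detected on both spots, 44 had a single kept spot on at least 1 array, and 4 had none on any array.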
